A study of Mus musculus with 30 samples.

Results

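Fgf5, Otx2, Pou3f1, Zic2 and Lef1 are 5 genes that mark the formative and primed phases of pluripotency. They were taken by name, and their identifiers were matched to GENCODE mouse symbols, so they are 5 of the 55401 genes in the count tables. Nuclear RNA-seq was made from mouse embryonic stem cells (mESCs) in which SRCAP, the catalytic subunit of the complex that exchanges the histone H2A for its variant H2A.Z, could be degraded. The 30 libraries fall into 15 conditions of 2 biological replicates, in 4 count tables that were fitted separately. Reads were counted over exons and, in a second column per library, over introns. The question asked of these genes is whether their RNA changes when SRCAP is lost, and whether it does so in cells without the degron or with SRCAP supplied from a transgene.

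SYAT cells are 1 homozygous CGR8 clone with SRCAP fused to YPet and AID, a degron, on both alleles, and with a lentiviral OsTir1 receptor driven by the EF1a promoter. Indole-3-acetic acid (IAA, 500 µM) brings the receptor to the degron and removes the protein. All SYAT control cells were kept in auxinole, which blocks the receptor. The time course compares SYAT control cells with cells after 2, 4, 6 and 8 h of IAA. CGR8, the parental line, has no degron and received IAA for 4 h or not. Early G1 (EG1) and late G1 (LG1) SYAT cells were sorted by DNA content and a fluorescent mitotic reporter after 1 h of IAA or of control treatment. wtSRCAP and cdSRCAP cells are SYAT cells that express wild-type or catalytically dead SRCAP fused to mCherry from a doxycycline-inducible transgene. They are 1 clone each, were sorted for mCherry, and all received doxycycline for 24 h, with or without IAA for 4 h. Clone and construct therefore cannot be told apart.

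Pluripotent cells pass from a naive state, through a formative phase, to a primed state that resembles the epiblast after implantation. During this transition FGF and WNT signals and a changed set of transcription factors ready the cells for germ layer choice. Fgf5 encodes a secreted FGF ligand and is a classical marker of the primed epiblast. Otx2 is a homeodomain factor that redirects OCT4 to new enhancers on exit from the naive state, Pou3f1 (also OCT6) is a POU factor of the epiblast and neural precursors, and Zic2 is a zinc finger factor that takes part in enhancer priming. Lef1 is the TCF/LEF family member that acts with β-catenin mainly as an activator of WNT target genes.

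H2A.Z is enriched at promoters as well as at enhancers in pluripotent cells. As context for the RNA values, the 250 bases before the most upstream RefSeq start are shown. They are given for the members with a RefSeq promoter entry (3 of 5, assembly GRCm38.p6). Capitals mark the GC box GGGCGG or its reverse complement CCGCCC.
Fgf5 (chr5:98253934-98254183, plus strand): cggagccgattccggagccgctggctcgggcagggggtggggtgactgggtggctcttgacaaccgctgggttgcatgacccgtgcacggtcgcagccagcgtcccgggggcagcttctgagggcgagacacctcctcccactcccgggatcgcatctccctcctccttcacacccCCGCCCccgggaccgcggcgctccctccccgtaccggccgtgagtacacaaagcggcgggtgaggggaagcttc
Otx2 (chr14:48667645-48667894, minus strand): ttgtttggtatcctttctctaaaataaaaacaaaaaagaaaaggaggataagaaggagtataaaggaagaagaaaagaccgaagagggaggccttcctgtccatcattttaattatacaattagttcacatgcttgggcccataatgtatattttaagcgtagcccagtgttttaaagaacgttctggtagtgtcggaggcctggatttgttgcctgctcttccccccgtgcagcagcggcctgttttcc
Lef1 (chr3:131110047-131110296, plus strand): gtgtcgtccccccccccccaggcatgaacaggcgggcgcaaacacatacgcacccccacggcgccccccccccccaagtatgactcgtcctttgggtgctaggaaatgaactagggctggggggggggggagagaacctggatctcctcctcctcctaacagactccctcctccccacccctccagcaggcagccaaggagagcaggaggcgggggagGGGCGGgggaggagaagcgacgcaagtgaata
The Fgf5 stretch holds 24 CpG dinucleotides, that of Lef1 11 and that of Otx2 6, beside a median of 6 over the same 250 bases of 32851 RefSeq promoters. The GC box occurs once before Fgf5 and once before Lef1 and is found, on either strand, before 32.7% of all promoters. The TCF/LEF core TCAAAG (13.8% of promoters), the OTX core TAATCC (6.25%) and the octamer ATGCAAAT (1.6%), each searched on both strands, were not in these 3 windows. None of the 3 windows overlaps an exon of its gene in GENCODE. The Otx2 window lies within the annotated gene, since a longer Otx2 transcript starts farther upstream.

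On GRCm38/mm10, Fgf5 (ENSMUSG00000029337.2) spans chr5:98254184-98277030 on the plus strand and Otx2 (ENSMUSG00000021848.16) chr14:48657677-48673819 on the minus strand. Pou3f1 (ENSMUSG00000090125.3) is a single-exon gene at chr4:124656807-124660655 on the plus strand. Zic2 (ENSMUSG00000061524.8) lies at chr14:122475435-122479852 and Lef1 (ENSMUSG00000027985.14) at chr3:131110471-131224356, both on the plus strand. Otx2 overlaps the antisense Otx2os1 over 5112 bp, Pou3f1 overlaps the antisense Gm2164 over 363 bp, and Lef1 overlaps the antisense Gm43352 over 1620 bp and the same-strand Gm42449 over 2258 bp. The strand setting of the counting is not given in the sources used here, so reads in these overlaps cannot be assigned with certainty. Exon reads on the antisense partners of Otx2 and Pou3f1 were few, with Otx2os1 at most 0.66 and Gm2164 at most 0.19 counts scaled by library size (CPM). Gm43352 reached 5.96 CPM and 6.51% to 37.6% of the Lef1 exon CPM of the same library, the highest share in replicate 1 of wtSRCAP cells with IAA.

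Exon totals ranged from 12236493 to 60214521 counts per library. Srcap RNA, which IAA is not meant to change, lay between 21.3 and 74.5 CPM and checks no label, since the protein is what is degraded. The intron columns of the time course and of EG1 hold exon reads: 692 of 1302 expressed single-exon genes had counts there in the time course and 925 of 1993 in EG1, but 1 of 1862 in CGR8, 2 of 1993 in LG1 and 1 of 1069 in wtSRCAP and cdSRCAP cells. Pou3f1, which has no intron, shows it among the members, with 4468 to 5464 intron counts per library in the time course and 0 in every CGR8, LG1, wtSRCAP and cdSRCAP library. Of the stem cell markers, Pou5f1 (317 to 1040 CPM), Sox2 (254 to 480), Lin28a (422 to 811) and Sall4 (438 to 1152) were high in all 30 libraries. Nanog (42.5 to 383 CPM), Esrrb (66.7 to 446) and Zfp42 (140 to 885) were read in every library too, but varied more between them. Of the markers of other cells, Lum stayed at or below 0.12 CPM, Neurog2 at or below 0.41, Dcn at or below 1.25 and Sox17 at or below 2.15. Others were read at low levels, with Dab2 up to 10.0 CPM, Gata4 up to 10.0, Thy1 up to 20.3 and Pax6 up to 29.3. The summed fibroblast markers reached 46.7 CPM in LG1 control cells, mostly from Col1a1, and 14.4 in CGR8. The summed endoderm markers went from 4.97 to 23.9 CPM, and the summed neuroectoderm markers, mostly Tubb3, went from 37.3 to 175 CPM over all libraries. In bulk libraries, fewer cells that express a gene and less RNA per cell cannot be told apart.

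Per length of exon, Pou3f1 was the member with the highest mean in 12 of the 15 conditions and Zic2 in the other 3. Otx2 ranked 3 of 5 in 11 conditions. Fgf5 and Lef1 took the last 2 places everywhere. In SYAT control cells the means of exon CPM per kilobase were 57.6 ± 12 (SD, n = 2) for Pou3f1, 57.6 ± 2.93 for Zic2, 29.2 ± 2.18 for Otx2, 8.50 ± 3.16 for Fgf5 and 3.34 ± 0.265 for Lef1. Pou3f1 and Zic2 therefore did not differ beyond their spread there. The tables were scaled separately, so levels between them are set side by side without a contrast. Fgf5 lay between 15.7 and 41.0 exon CPM in the time course, 0.52 and 2.16 in CGR8, 4.21 and 16.5 after sorting for G1, and 0.85 and 2.44 with either transgene. Zic2 lay between 139 and 215 CPM in the time course but between 11.8 and 32.6 in wtSRCAP and cdSRCAP cells. Nanog, a naive state marker, was at 42.5 to 114 CPM in the time course and 231 to 383 in CGR8. Among other naive genes, Klf4 had the same order (19.0 to 43.9 and 140 to 173). Klf5 (222 to 334 and 193 to 228) and Tbx3 (13.4 to 40.1 and 20.1 to 37.1) overlapped between these tables. How many naive genes had either order was not counted.

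In the time course, none of the 5 members passed the test at any time (edgeR quasi-likelihood test, Benjamini-Hochberg adjusted p under 0.05 and an absolute log2 fold change over 0.5). Few genes did: 0% of the 19205 genes tested at 2 h and at 4 h, 0.0677% at 6 h (0.0312% higher and 0.0364% lower) and 0.00521% at 8 h. Of the members, 2 at 2 h and 1 at each later time had an unadjusted p under 0.05. At an unadjusted p under 0.05 the shares of all genes were 3.92%, 9.09%, 16.1% and 13.6% at 2, 4, 6 and 8 h, with 8.21% lower at 6 h and 8.44% lower at 8 h. DESeq2 called 8, 123, 571 and 380 genes at these times, and likewise no member. The median log2 fold change of the 5 members was 0.30 at 2 h, 0.21 at 4 h, 0.08 at 6 h and 0.05 at 8 h, while that of all genes stayed between 0.00 and 0.03.

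**Figure D1:**
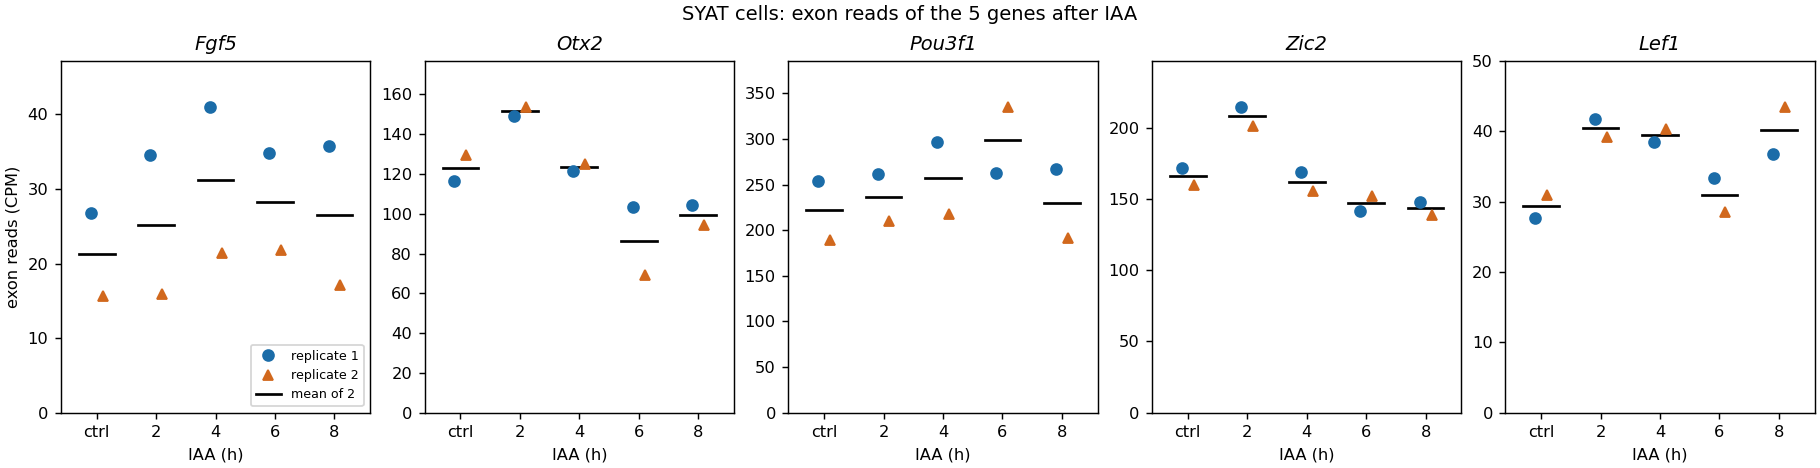
Exon reads of the 5 genes in CPM (vertical axis, from 0) in SYAT control cells and after 2, 4, 6 and 8 h of IAA (horizontal axis). Points are single libraries and black bars the mean of 2. Lef1 lies above both controls at 2, 4 and 8 h, and Otx2 and Zic2 lie above them at 2 h and below them at 6 and 8 h.

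Fgf5, the ligand, was read at 26.8 and 15.7 exon CPM in the control libraries, 34.5 and 16.0 at 2 h, 41.0 and 21.4 at 4 h, 34.8 and 21.8 at 6 h, and 35.8 and 17.1 at 8 h. In each condition replicate 1 held more than replicate 2, and the groups overlapped at every time. The fold changes were small beside their errors, from 0.25 ± 0.48 (log2, ± SE) at 2 h to 0.55 ± 0.48 at 4 h. Nanog, named after its values were seen, had the opposite order, with 42.5 and 73.2 CPM in the controls and 79.5 and 99.8 at 8 h, so that replicate 2 was the higher library at all 5 conditions. The part of this difference between replicates in the Fgf5 values was not tested.

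Otx2 was read at 117 and 130 CPM in control cells, 149 and 154 at 2 h, 122 and 125 at 4 h, 104 and 69.5 at 6 h, and 105 and 94.4 at 8 h. The libraries of 2 h lay above both controls and those of 6 and 8 h below both, as did 22.2% of all genes at 6 h and 24% at 8 h. The log2 fold changes were 0.30 ± 0.17 at 2 h, 0.00 ± 0.17 at 4 h, -0.51 ± 0.17 at 6 h (unadjusted p = 0.0149, adjusted p = 0.2035, edgeR) and -0.31 ± 0.17 at 8 h. The value at 6 h rested on replicate 2, whose Tcf15 (153 CPM) and Pou5f1 (957 CPM) also stood apart from the other 9 libraries of the time course. Without replicate 1 of 6 h, Otx2 was called (log2 fold change -0.82, edgeR adjusted p = 0.004612), together with 15.4% of all genes tested, and without replicate 2 its value was -0.25. In these fits 6 h is 1 library, assumed to vary like the other groups, which give the spread. From 2 h to 8 h Otx2 differed by -0.61 ± 0.17 (unadjusted p = 0.005802, adjusted p = 0.8037, edgeR). Its intron column gave nearly the same values (0.29, -0.04, -0.55 and -0.35 at 2, 4, 6 and 8 h), but intron and exon CPM were almost equal in these libraries, with a ratio of 0.971 to 1.05, and the column is not an independent measurement.

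Zic2 followed the same order. Its exon CPM were 172 and 160 in control cells, 215 and 201 at 2 h, 169 and 155 at 4 h, 142 and 152 at 6 h, and 148 and 139 at 8 h. Both libraries of 2 h were above the controls, those of 4 h overlapped them, and those of 6 and 8 h were below. The log2 fold changes were 0.33 ± 0.12 at 2 h (unadjusted p = 0.01992, edgeR adjusted p = 0.9999), -0.03 ± 0.12 at 4 h, -0.18 ± 0.12 at 6 h and -0.21 ± 0.12 at 8 h. Zic2 was lower at 8 h than at 2 h by -0.53 ± 0.12 on the log2 scale, with an unadjusted p = 0.00108 that did not hold over all genes (edgeR adjusted p = 0.5836), where 5.23% of genes had an unadjusted p under 0.05 (1.83% higher and 3.41% lower). Both members were non-overlapping and lower in this contrast, beside 18.3% of all genes, and 0 members were non-overlapping and higher, beside 16.3%. The conditions in order of mean Zic2 were 8 h (143 ± 6.34, SD, n = 2), 6 h (147 ± 7.70), 4 h (162 ± 9.43), control (166 ± 8.42) and 2 h (208 ± 9.54). Of these neighbours, 8 h and 6 h, and 4 h and control, differed by less than their SD. In the intron column Zic2 was at 0 counts in replicate 2 at 4, 6 and 8 h while its exons held at least 2438 counts in every library, and nothing is read from that column.

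Pou3f1 varied more between replicates than between most conditions. It was read at 254 and 189 CPM in control cells, 261 and 211 at 2 h, 297 and 217 at 4 h, 262 and 335 at 6 h, and 267 and 192 at 8 h. The 6 h libraries lay above both controls (log2 fold change 0.43 ± 0.23, unadjusted p = 0.08989), and the other times overlapped them, with values of 0.05 to 0.21. Such an order was common among all genes at the other times, and its share at 6 h is not given here.

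Lef1 was the member that was higher in most of the time course. Its exon CPM were 27.7 and 31.0 in control cells, 41.8 and 39.2 at 2 h, 38.5 and 40.4 at 4 h, 33.4 and 28.6 at 6 h, and 36.9 and 43.5 at 8 h. At 2, 4 and 8 h both libraries lay above both controls, and at 6 h they overlapped. The log2 fold changes were 0.46 ± 0.15 (unadjusted p = 0.013), 0.42 ± 0.15 (unadjusted p = 0.0198), 0.08 ± 0.15 (unadjusted p = 0.6293) and 0.45 ± 0.15 (unadjusted p = 0.01454) at 2, 4, 6 and 8 h, and the lowest edgeR adjusted p among them was 0.2365. At 2 h, 3 of 5 members had both libraries above both controls, beside 18.6% of all genes in that direction, and 0 had both below, beside 21%. The shares of genes in that direction were 21.7% at 4 h and 20.9% at 8 h, where Lef1 was the only such member.

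Lef1 introns, which make up most of this long gene, were read at 64.2 and 72.2 CPM in control cells, 102 and 93.8 at 2 h, 81.5 and 122 at 4 h, 105 and 86.0 at 6 h, and 76.9 and 154 at 8 h. All 8 libraries with IAA lay above both controls, while 20.2% to 21.6% of the 14719 genes tested had non-overlapping higher values at each time. At 2 h 1.84% of genes were higher at an unadjusted p under 0.05, none of them a member, and at 4 h 24.6% were non-overlapping and lower, again without a member. The log2 fold changes were 0.52 ± 0.32, 0.57 ± 0.32, 0.49 ± 0.32 and 0.76 ± 0.32 at 2, 4, 6 and 8 h, with a smallest unadjusted p of 0.04631 at 8 h (edgeR adjusted p = 0.36). The intron columns of the time course hold exon reads of other genes, as given above, and their share in the Lef1 values was not tested. Lef1 intron CPM were 2.08 to 3.54 times exon CPM here but 10.3 to 22.9 times in CGR8, LG1, wtSRCAP and cdSRCAP libraries. Each column was scaled by its own total, for introns 18652274 to 26851535 counts here and 3902509 to 7287893 in CGR8. These ratios therefore do not show exon reads in Lef1.

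**Figure D2:**
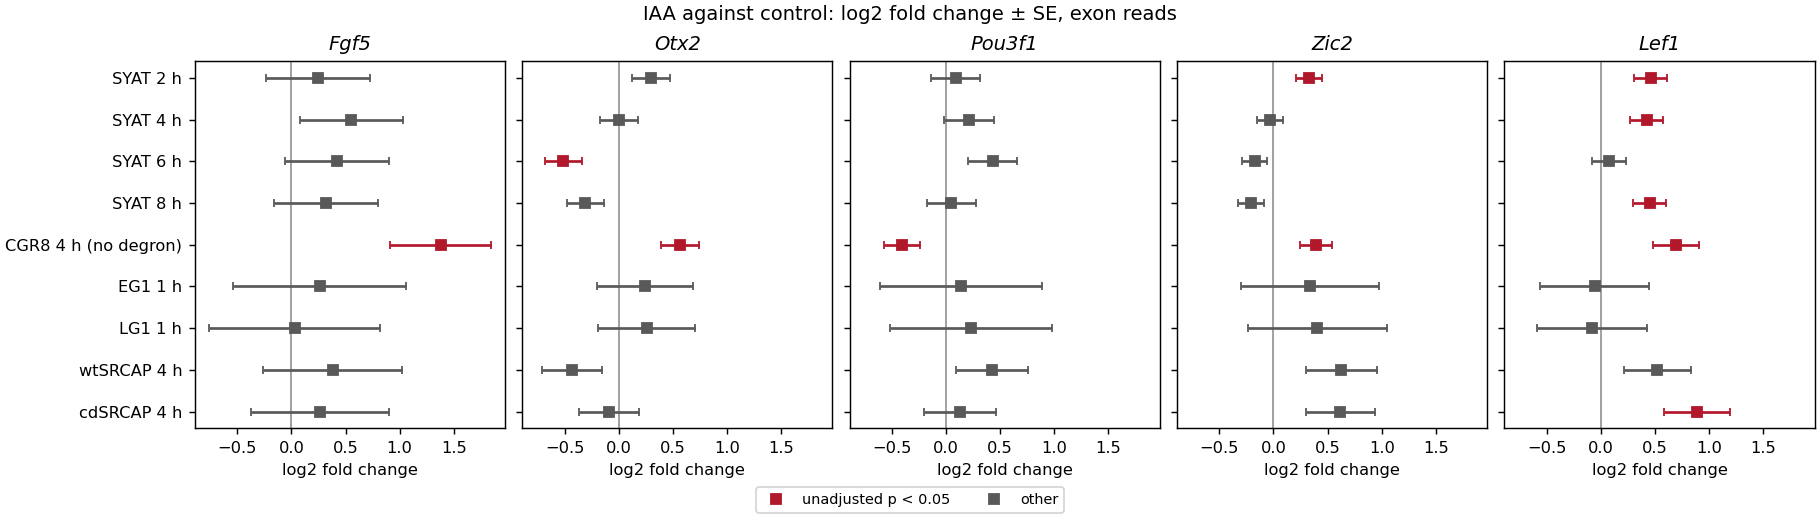
Log2 fold change of exon reads with IAA against control (horizontal axis, bars ± SE from edgeR) for each gene in the 9 IAA comparisons (vertical axis). Red marks an unadjusted p under 0.05, and in these fits no value passed after adjustment over all genes. CGR8, without the degron, holds the largest value of Fgf5, 1.38.

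In CGR8 cells, which lack the degron, all 5 members had an unadjusted p under 0.05 and no overlap between the groups, 4 of them higher with IAA and Pou3f1 lower. Of the 20250 genes tested, 9.16% had an unadjusted p under 0.05, 21.6% were non-overlapping and higher, and 20.6% non-overlapping and lower. The edgeR adjusted p of every member was 0.5401, and 0.00988% of genes were called. DESeq2 called no member either and gave no adjusted p for Fgf5, whose counts are low. The median log2 fold change was 0.56 over the members and 0.00 over all genes.

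Fgf5 stood at 0.94 and 0.52 exon CPM in CGR8 control cells and at 2.16 and 1.61 after IAA, from 40, 28, 117 and 100 counts. Both libraries with IAA were higher, by a log2 fold change of 1.38 ± 0.47 (unadjusted p = 0.01678). Otx2 went from 37.5 and 51.2 to 63.2 and 68.1 CPM (0.56 ± 0.17, unadjusted p = 0.01052). The lower of the Otx2 values with IAA was above the higher control. Zic2 went from 42.8 and 38.2 to 56.0 and 50.1 CPM (0.39 ± 0.15, unadjusted p = 0.02707). Zic5, also a zinc finger factor, lies 9757 bp away on the other strand. It went from 27.0 and 36.2 to 45.5 and 49.98 (0.59 ± 0.18, unadjusted p = 0.008634). The transcript 2610035F20Rik, on the strand of Zic5 but 235 bp from Zic2, had overlapping groups (-0.21 ± 0.28, edgeR unadjusted p = 0.4649). Lef1 went from 8.98 and 12.4 to 15.8 and 18.8 CPM in exons (0.70 ± 0.21, unadjusted p = 0.01023). Its introns were also higher, from 142 and 162 to 216 and 222 CPM (0.53 ± 0.14, unadjusted p = 0.005066, edgeR adjusted p = 0.8691). Pou3f1 alone was lower, with 49.1 and 40.5 CPM in control cells and 36.6 and 30.9 with IAA (-0.41 ± 0.16, unadjusted p = 0.0374).

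The CGR8 calls differed when a control library was left out. These fits have 1 control library, and their spread comes from the IAA pair alone, to which the lone control is assumed to be alike. Without control replicate 1, Fgf5 was called (1.86, edgeR adjusted p = 0.03389), and without control replicate 2, Otx2 (0.81, 0.001031), Lef1 (0.96, 0.002204) and Pou3f1 (-0.53, 0.04614) were, beside 0.734% and 10.9% of all genes in those fits. Without a filter on low counts Otx2 was called (adjusted p = 0.03994), beside 1.26% of genes. In SYAT cells after the same 4 h of IAA, the exon values were 0.55 for Fgf5, 0.00 for Otx2, -0.03 for Zic2, 0.42 for Lef1 and 0.21 for Pou3f1. The difference between the lines was not tested, because the tables were normalized separately.

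**Figure D3:**
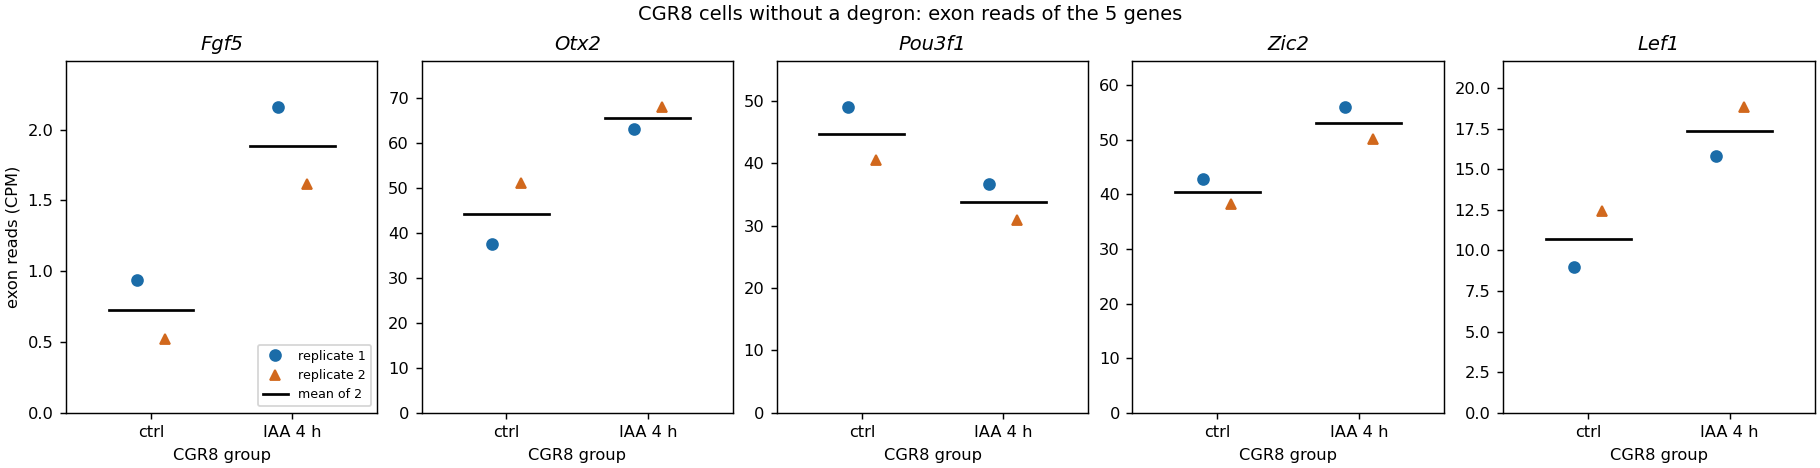
Exon reads in CPM (vertical axes, from 0) of the 5 genes in CGR8 control cells and after 4 h of IAA (horizontal axis). Points are libraries and bars the mean of 2. The groups do not overlap in any panel, and Pou3f1 is the panel in which IAA is lower.

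In exons of sorted cells after 1 h of IAA, no member passed the test in EG1 or LG1, by edgeR, by DESeq2 or by the rule the study set for these cells (an unadjusted p under 0.05 with an absolute log2 fold change over 0.25). Of the 21020 genes tested, 1.22% in EG1 and 1.02% in LG1 had an unadjusted p under 0.05, and 0% passed with adjustment. The members' log2 fold changes lay between -0.06 and 0.34 in EG1 and between -0.08 and 0.41 in LG1, with standard errors of 0.44 to 0.80 and no unadjusted p below 0.5439. The largest was that of Zic2 in LG1 (39.5 and 79.9 CPM in control cells, 44.9 and 113 with IAA). The groups overlapped for all 5 members. Among libraries of the same replicate number, that with IAA was higher in 4 of 4 for Otx2, Zic2 and Pou3f1, in 3 of 4 for Fgf5 and in 0 of 4 for Lef1. How many of all genes showed such an order was not counted, and the numbers were not taken to pair the samples. Without a filter on low counts Zic2 passed the study's rule in LG1, beside 1.01% of all genes.

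In the sorted cells the replicates of a group lay far apart. Replicate 2 held 2.61 to 3.29 times the Pou3f1 CPM of replicate 1, with 63.1 and 171 CPM in EG1 control cells, and 2.39 to 3.92 times its Fgf5. The ratios were 2.03 to 2.58 for Zic2, 1.79 to 1.85 for Otx2 and 1.61 to 2.31 for Lef1, so all 5 members were higher in replicate 2 in all 4 groups. Klf4, a naive state factor named after its values were seen, was lower there, at 35.8 CPM against 47.8 in EG1 control cells. In the fit without a replicate term, EG1 and LG1 control cells did not differ in any member by more than the value of Fgf5 (-0.40 ± 0.80, lower in EG1). The response to IAA differed between EG1 and LG1 by at most 0.23 ± 1.12 (Fgf5), with no unadjusted p below 0.843. In LG1 introns, Lef1 stood at 71.8 and 158 CPM in control cells and 96.2 and 169 with IAA, which overlapped. EG1 and LG1 introns were not compared, since only the EG1 columns hold exon reads. In the EG1 intron column, fitted together with that of LG1, Zic2 passed the study's rule (unadjusted p = 0.01995, edgeR adjusted p = 1), beside 2.28% of genes with such a p. That value rests on 151 counts in replicate 2 with IAA and 0 in the other 3 libraries, so no fold change is given.

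**Figure D4:**
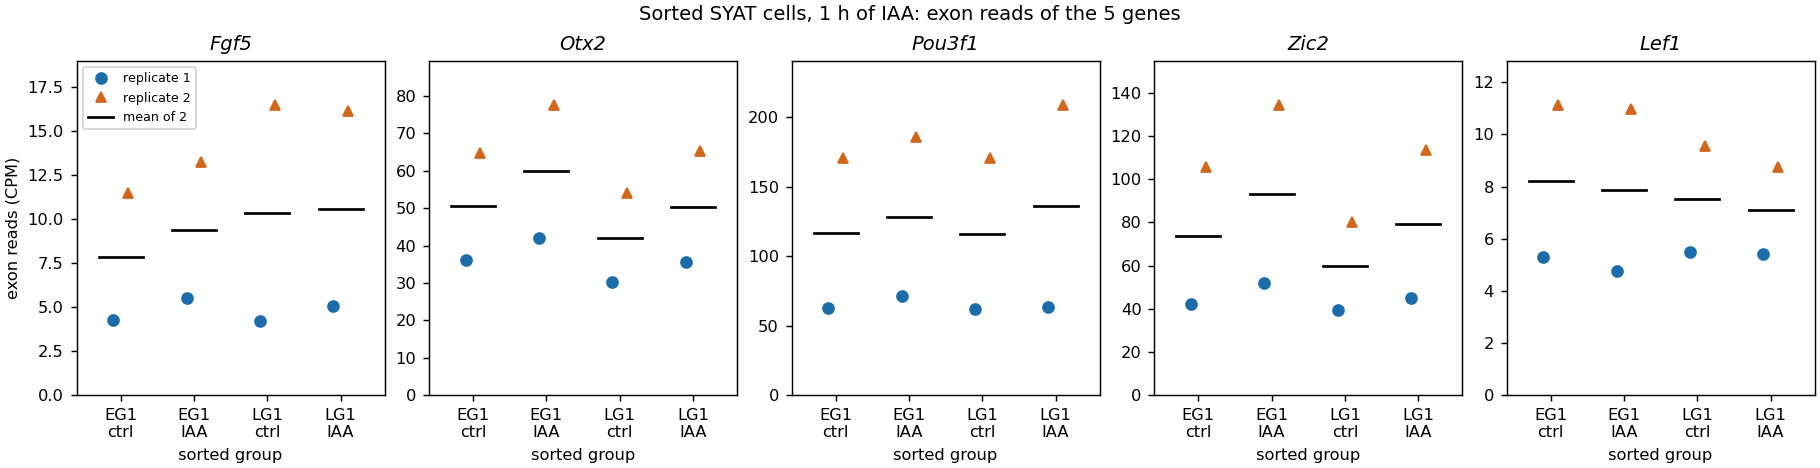
Exon reads in CPM (vertical axes, from 0) of the 5 genes in EG1 and LG1 control and IAA libraries (horizontal axis). Points are libraries and bars the mean of 2. Replicate 2 lies above replicate 1 in every group and panel, by 1.61 to 3.92 times.

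In wtSRCAP and cdSRCAP cells, no member passed the test in exons with 4 h of IAA. Among 19111 genes tested, 0.00523% were called in wtSRCAP and 0% in cdSRCAP cells, and 7.4% and 5.64% had an unadjusted p under 0.05. The median log2 fold change of the members was 0.42 in wtSRCAP and 0.26 in cdSRCAP cells, beside -0.02 and 0.02 over all genes. The summed fibroblast markers were at 4.99 to 5.40 CPM in wtSRCAP control cells and 12 to 12.3 with IAA, and at 6.48 to 7.43 and then 8.34 to 8.73 in cdSRCAP cells. Of 5 such markers 3 were tested and 0 called, Col1a1, Col1a2 and Thy1 all had positive values in wtSRCAP cells, and their part in the members' values was not tested.

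Lef1 had the largest fold changes here, in introns. In wtSRCAP cells its introns were at 138 and 148 CPM without IAA and at 315 and 295 with it. In cdSRCAP cells they were at 211 and 130 CPM without and at 447 and 295 with IAA. Both libraries with IAA were above both without it in each line, by log2 fold changes of 1.09 ± 0.25 (unadjusted p = 0.001701, edgeR adjusted p = 0.1376) and 1.12 ± 0.25 (unadjusted p = 0.001332, edgeR adjusted p = 0.1223). Such an order was common among all genes in the time course and in CGR8. Its share in these lines, in exons or introns, is not given here. DESeq2 called Lef1 in both lines (adjusted p = 0.003793 and 0.001753), beside 2.11% and 1.52% of all genes, and so did edgeR without a filter on low counts (6.695e-06 and 5.546e-07), beside 2.34% and 1.72%. The responses of the lines differed by 0.03 ± 0.35 on the log2 scale. Leaving out 1 library at a time gave 0.82 to 1.56 in cdSRCAP cells, the lowest without its control replicate 2 and the highest without its control replicate 1.

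In exons, Lef1 went from 9.91 and 14.4 to 13.8 and 20.97 CPM in wtSRCAP cells (0.52 ± 0.31, unadjusted p = 0.1238), where the groups overlapped. In cdSRCAP cells it went from 14.4 and 11.3 to 26.5 and 21.04 CPM (0.89 ± 0.31, unadjusted p = 0.01735, edgeR adjusted p = 0.7638), without overlap. The exon responses of the lines differed by 0.37 ± 0.43 (unadjusted p = 0.4189), so no difference between them was shown.

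**Figure D5:**
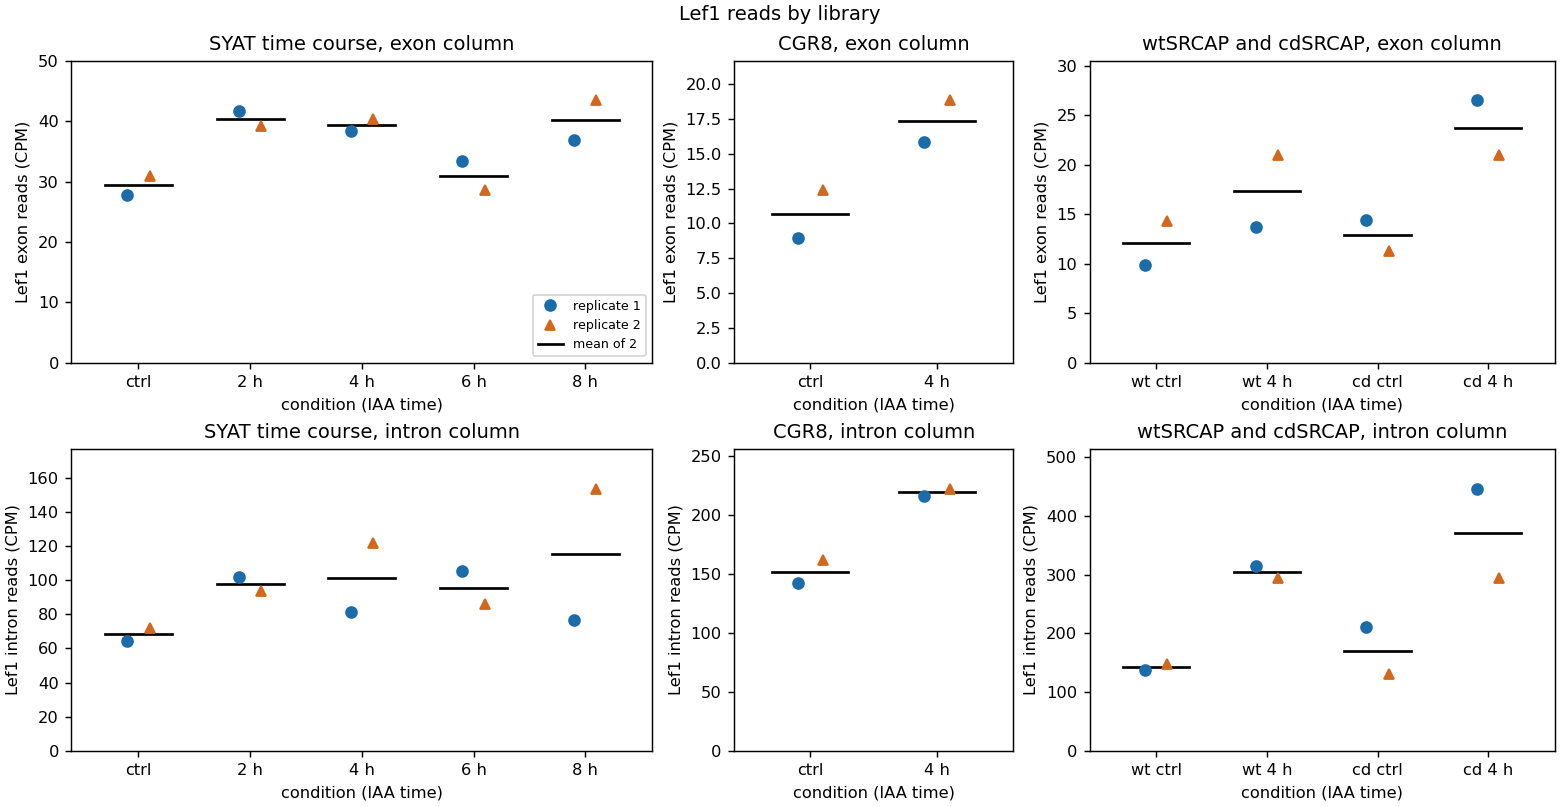
Lef1 reads by library in the exon column (upper row) and intron column (lower row), in CPM from 0, for the time course, CGR8, and wtSRCAP (wt) and cdSRCAP (cd) cells. Points are libraries and bars the mean of 2. In introns every IAA library lies above the controls of its own line, and with wtSRCAP the mean goes from 143 to 305.

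Zic2 was higher with IAA in both lines, from 23.5 and 11.8 to 31.2 and 23.3 CPM in wtSRCAP cells (0.63 ± 0.32, unadjusted p = 0.08289) and from 22.1 and 20.1 to 32.3 and 32.6 in cdSRCAP cells (0.62 ± 0.32, unadjusted p = 0.0849). The groups overlapped in wtSRCAP and did not in cdSRCAP cells, and neither value passed the test. Otx2 was at 56.8 and 65.2 CPM in wtSRCAP control cells and 32.6 and 57.6 with IAA (-0.43 ± 0.28), and at 41.4 and 48.6 and then 39.9 and 44.5 in cdSRCAP cells (-0.09 ± 0.28). Otx2 was lower in cdSRCAP than in wtSRCAP control cells, without overlap (-0.44 ± 0.28, unadjusted p = 0.1478). Its introns gave 32.9 and 33.2 CPM in wtSRCAP and 17.6 and 25.4 in cdSRCAP control cells. With IAA they gave 24.4 and 26.9 against 11.0 and 17.1 (-0.86 ± 0.32, unadjusted p = 0.02223, edgeR adjusted p = 0.4084). These rest on 46 and 113 counts in wtSRCAP and 45 and 90 in cdSRCAP cells. Otx2 exons with IAA overlapped between the lines (-0.10 ± 0.28, edgeR unadjusted p = 0.7264). Pou3f1 went from 65.1 and 57.0 to 98.3 and 65.5 CPM in wtSRCAP cells (0.42 ± 0.33) and from 71.0 and 44.9 to 79.9 and 46.7 in cdSRCAP cells (0.13 ± 0.33), where the groups overlapped, unlike in wtSRCAP cells. Fgf5 rested on 19 to 44 counts per library, with 0.38 ± 0.64 and 0.26 ± 0.64.

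Other genes of the formative and primed program gave no exon call in any comparison. Of 22 listed and tested in the time course, 1 had an unadjusted p under 0.05 at 2 h, 0 at 4 h, 6 at 6 h and 3 at 8 h, all of them higher. The shares of all genes with such a p in the higher direction were 1.37%, 3.09%, 7.93% and 5.13%. At 6 h the smallest p were those of Tcf15, a bHLH factor of the formative phase (1.44, from 42.5 and 37.8 CPM to 65.2 and 153, unadjusted p = 0.0009322, edgeR adjusted p = 0.07992), and Dnmt3a, a de novo DNA methyltransferase (0.55, unadjusted p = 0.004775). At 8 h they were Etv4, an ETS factor downstream of FGF (0.47, unadjusted p = 0.005553), and Rbpj (0.56, unadjusted p = 0.02186). The median of the list was 0.20 at 2 h, 0.17 at 4 h, 0.19 at 6 h and 0.03 at 8 h. Replicate 2 of 6 h, which stood apart in Tcf15 and Pou5f1, enters the 6 h counts of this list and those below. Its part in them was not tested.

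In CGR8, 4 of the 22 were higher and 2 lower at an unadjusted p under 0.05, among them Rbpj (0.55, unadjusted p = 0.003442), beside 5.04% and 4.12% of all genes. In wtSRCAP cells 5 were higher and 0 lower with IAA, beside 2.93% of all genes higher, led by Foxd3 (1.17, unadjusted p = 0.009036) and Tcf15 (0.97, unadjusted p = 0.02608), and in cdSRCAP cells 1 was (Cdh2, 0.65, unadjusted p = 0.03062), beside 1.65%. In introns, Dnmt3b, a de novo DNA methyltransferase named after its values were seen, was called lower in wtSRCAP cells (edgeR adjusted p = 0.03204), beside 0.236% of genes called lower. It had 400 and 237 intron counts in control cells and 0 in both libraries with IAA. Its exons held 321 to 716 CPM over all wtSRCAP and cdSRCAP libraries, and nothing is read from the intron call.

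Naive state genes were listed as the counterpart. Of 14 tested, 2 were higher at 6 h at an unadjusted p under 0.05 (Nr0b1, 1.13, unadjusted p = 0.007987, and Klf5, 0.43, unadjusted p = 0.01255) and 0 lower, and all 14 had a positive fold change at 2 h and at 6 h. Their median was 0.30 at 2 h and 0.30 at 6 h, beside 0.00 and 0.01 over all genes. The share of all genes higher at such a p at 6 h is given with the formative and primed list. The share with a positive fold change was not counted. In CGR8, 3 naive genes were higher at such a p, led by Nanog (0.63, unadjusted p = 0.0009863) and Prdm14 (0.59, unadjusted p = 0.008792), beside the CGR8 share of all genes given above. Between cdSRCAP and wtSRCAP control cells, 4 naive genes were higher and 1 lower at an unadjusted p under 0.05, beside 2.5% and 1.32% of all genes. They were led by Tbx3 (1.78, unadjusted p = 0.0006001, edgeR adjusted p = 0.8192) and Dppa3 (-1.57, unadjusted p = 0.01046). Otx2 was lower there without overlap, and the other members overlapped (Zic2 0.26, Lef1 0.08, Pou3f1 -0.08 and Fgf5 -0.13). Of the 22 other formative and primed genes, 0 were higher and 0 lower at such a p.

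WNT targets and TCF factors were listed beside Lef1. Of 7 tested in the time course, 2 were higher at 6 h at an unadjusted p under 0.05. They were Notum (1.09, unadjusted p = 0.01484), an extracellular WNT inhibitor, and Axin2 (0.43, unadjusted p = 0.02876), a feedback inhibitor of β-catenin. At 4 h 1 was (Tcf7l2, 0.57, unadjusted p = 0.02865). The shares of all genes higher at such a p are those given with the formative and primed list. Lef1 itself was at its lowest fold change at 6 h. Notum was also higher with IAA in wtSRCAP cells (0.82, unadjusted p = 0.007656) and in cdSRCAP cells (0.57, unadjusted p = 0.03963). In CGR8, where Lef1 was higher, 0 of 8 reached an unadjusted p under 0.05 and the median was -0.22.

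Genes of the primitive streak, the next step after the primed state, included Eomes, a T-box factor. Of the 8 tested, 1, 1, 3 and 1 were higher at 2, 4, 6 and 8 h at an unadjusted p under 0.05, with 0 lower. The shares of all genes higher at such a p are those given with the formative and primed list. Eomes was among the higher genes at 4 h (0.84, unadjusted p = 0.008315) and at 6 h (0.71, unadjusted p = 0.02072). In wtSRCAP cells with IAA, 4 of 7 tested were higher, led by Sp5 (1.37, unadjusted p = 0.007757) and Eomes (1.17, unadjusted p = 0.01309), beside 2.93% of all genes. Of 6 general pluripotency genes, 2 were higher at 6 h at an unadjusted p under 0.05, beside the share of all genes given above for 6 h. In CGR8, 0 reached such a p. Paralogs of the members and FGF receptors gave no call, and in CGR8 Fgfr1 (-0.48, unadjusted p = 0.006897) and Fgfr2 (-0.41, unadjusted p = 0.0184) were lower.

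The genes whose exon pattern was most like that of each member were sought by Pearson r over 15 condition means, centred within each table, among 17481 genes that passed the filter in all tables. The points of a table share libraries, scaling and controls, and these values are a description. Zic2 was closest to Sox2 (r = 0.931) and Rasl11a (0.901). Otx2 was closest to Prr11 (0.916), Selenok (0.911) and Lyplal1 (0.898), Pou3f1 to Fbxl19 (0.966), Rrs1 (0.963) and Fkbp4 (0.962), Lef1 to Gm12867 (0.964), Zbtb11 (0.961) and Fam168a (0.953), and Fgf5 to Gm8116 (0.923), Gm6087 (0.903) and Gm16201 (0.903). Among the members, Zic2 and Lef1 were the closest pair (0.716), and Otx2 and Pou3f1 the farthest apart (-0.437).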

How the data were processed

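The study made nuclear RNA-seq libraries in biological duplicates. The authors aligned reads to mm10 with STAR, counted exons and introns of GENCODE release 25 with featureCounts, and deposited whole-number counts per gene for each library, not normalized. The strand setting is not given in the sources used here. Deposited tables of the authors' own comparisons (fold changes and p-values) were not used. Symbols and positions were taken from GENCODE release 21, and 55141 of 55401 gene identifiers matched.

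Each table was fitted alone, exon and intron columns separately, in R 4.3.3 with edgeR 4.0.16 (TMM, filterByExpr with a minimum count of 10 and a minimum total of 15, quasi-likelihood test, 1 term for the condition). P-values were adjusted by Benjamini-Hochberg over all genes tested. Genes were called at an adjusted p under 0.05 and an absolute log2 fold change over 0.5. CPM used TMM library sizes. DESeq2 1.42.0 and the other alternatives are compared in the closing section. The fit was tested on simulated counts.

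The members and the gene lists were chosen with earlier results of these data known. All 5 members are named. From each other list the 1 or 2 genes with the smallest p per comparison are named, with the 3 genes most like each member. Some genes that this rule would name are not reported here. Exon totals were 17540823 to 22873893 counts in the time course, 45617992 to 60214521 in CGR8, 19740778 to 26672402 in sorted cells and 12236493 to 26369773 in wtSRCAP and cdSRCAP cells. The study's reporting form describes its replicates as separately cultured and treated cells, and p-values measure the spread between 2 such samples.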

Additional observations from a re-analysis of the deposited data

Results flagged for a closer look

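Otx2 and Zic2 were set apart because all libraries of 2 h moved one way from the control libraries and all libraries of 8 h the other way. For Otx2 the difference of 8 h from 2 h was -0.61 (log2) in exons, with an edgeR adjusted p of 0.8037, and -0.64 in the intron column, with an adjusted p of 1, which is not independent of the exons. For Zic2 it was -0.53 in exons, with an edgeR adjusted p of 0.5836. These differences were tested and did not hold over all genes.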

How the results depend on the processing

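With 2 libraries per condition, few genes passed adjustment and the fold changes of the members moved with single libraries. No member was called in exons or introns in the main edgeR fits, those with the settings given above. RLE size factors changed no count of called members and no direction. In CGR8 exons, 1 member was called without a filter on low counts, and 2 (Otx2 and Lef1) with a replicate block, beside 2.47% of all genes. In wtSRCAP and in cdSRCAP introns, 1 member (Lef1) was called under DESeq2, without the filter and with the replicate block. Leaving out 1 library at a time gave 0 to 1 members called at 6 h in exons and in introns, 0 to 3 in CGR8 exons and 0 to 1 in CGR8 introns, and 0 elsewhere. Each comparison has only 2 replicate numbers and no label says that a number marks a shared culture or day, so they were not taken to pair the samples. The correlation of same-numbered samples was -0.023 to 0.65 in time course exons, 0.159 in CGR8, 0.482 to 0.677 in sorted cells and 0.376 to 0.512 in wtSRCAP and cdSRCAP cells. In the time course it was -0.023 to 0.115 between 6 h and the other conditions, and 0.333 to 0.65 among those others. The block changed the sign of 1 value, that of Otx2 at 4 h (-0.00038), and changed no other call by adjusted p. By the study's rule for sorted cells, 0 members passed in exons, but with the replicate block 1 did in EG1 (Zic2, 0.33, unadjusted p = 0.000478) and 2 in LG1 (Zic2, 0.36, 0.000306, and Otx2, 0.25, 0.001857), beside 6.04% and 4.2% of all genes, and 1 in LG1 without the filter. Leaving out a library gave 0. Their edgeR adjusted p with the block were 0.2298 to 0.3632. Between EG1 and LG1 control cells, 3 members (Fgf5, Otx2 and Zic2) passed the study's rule in exons with the block, beside 1537 of 21020 genes. In the main fit of that contrast 0 members passed it. Leaving out single libraries changed the sign of exon values of Fgf5 at 2 h (range -0.42 to 0.70), 8 h (-0.32 to 0.76), in wtSRCAP (-0.18 to 1.24) and in cdSRCAP cells (-0.27 to 1.02), of Pou3f1 at 2 h (-0.11 to 0.32), 4 h (-0.033 to 0.44), 8 h (-0.22 to 0.28) and in cdSRCAP cells (-0.33 to 0.49), of Otx2 at 4 h (-0.074 to 0.079) and in cdSRCAP cells (-0.21 to 0.046), of Zic2 at 4 h (-0.10 to 0.025) and of Lef1 at 6 h (-0.036 to 0.19). EG1 and LG1 introns fitted alone, chosen after seeing the data, gave 0 called members. By the study's rule 0 members passed in EG1 introns fitted alone, while 1 (Zic2) passed in the joint fit. The causes were not tested.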
